A study of Mus musculus with 12 samples.

Results

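The Reg genes encode small secreted C-type lectins of the gut and pancreas. Here *Reg1*, *Reg3a*, *Reg3b*, *Reg3g* and *Reg4* were followed, 5 genes of the 34245 in the count table, each found by its exact name and each with a row of its own. They were measured by poly(A)+ RNA sequencing in adult enterocytes (AE) and stem cells of the small intestine (ISC), both from young and aged mice, a comparison made to find genes that change with age in the intestinal epithelium. All mice were males on a C57BL/6 background that carry the Lgr5-EGFP-IRES-CreERT2 knock-in allele (C57BL/6 Lgr5-GFP), which puts GFP under the *Lgr5* promoter, so the controls carried the allele too. Young ISC and young AE came from mice with a mean age of 8 months, aged ISC and aged AE from mice with a mean age of 27 months, with 3 libraries in each of the 4 groups. ISC were sorted from crypts as GFP-high cells and AE from villi as Epcam-high cells without CD31 or CD45, so AE is a sort of villus epithelium and not of enterocytes alone.

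The RegIII lectins are known as antimicrobial proteins that enterocytes and Paneth cells release into the gut lumen. *Reg3b* and *Reg3g* (RegIIIβ and RegIIIγ) bind bacterial surfaces and help to keep bacteria at a distance from the mucosa, and their transcription depends on microbes and on interleukin-22 (IL-22), which signals through its receptor to STAT3. *Reg1* is best known from regenerating pancreas and inflamed mucosa, and *Reg4* marks enteroendocrine and goblet cells of the intestine and the deep crypt secretory cells of the colon.

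*Reg2*, *Reg3d* and all of the 5 genes but *Reg4* lie in a cluster on chromosome 6 of GRCm38, with *Reg3b* (78370657 to 78373466), *Reg3a* (78380709 to 78383827), *Reg1* (78422711 to 78428667) and *Reg3g* (78466269 to 78468872, on the minus strand), and *Reg4* lies apart on chromosome 3 (98222156 to 98236748). Over their coding sequences in GENCODE, *Reg3b* shared 76.4% of aligned bases with *Reg3g* (401 of 525) and likewise 76.4% with *Reg3a* (396 of 518). Over the 250 bases before the start of transcription, identity was taken as a share of the whole window. It was 69.2% between *Reg3b* and *Reg3g*, against 54.8% between *Reg3b* and *Reg3a*. Of aligned bases, however, 173 of 247 were identical in the former pair and 137 of 196 in the latter. The lower share of the latter thus came with fewer aligned bases, and per aligned base the windows did not tell the pairs apart. As described further on, *Reg3b* and *Reg3g* rose and fell together over the libraries and *Reg3a* did not follow them. For this reason the last 150 bases of the windows of these 3 genes are shown. They are RefSeq windows of GRCm38.p6, written 5′ to 3′ on the strand of the gene and ending at the base before the start, at chr6:78370735-78370884 (plus strand), chr6:78468875-78469024 (minus strand) and chr6:78380559-78380708 (plus strand). Capitals mark TATAAA and TTCNNNGAA, the latter the form that STAT factors can bind.
Reg3b: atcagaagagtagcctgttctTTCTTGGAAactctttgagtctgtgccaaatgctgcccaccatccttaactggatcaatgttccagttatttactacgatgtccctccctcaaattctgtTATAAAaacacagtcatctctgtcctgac
Reg3g: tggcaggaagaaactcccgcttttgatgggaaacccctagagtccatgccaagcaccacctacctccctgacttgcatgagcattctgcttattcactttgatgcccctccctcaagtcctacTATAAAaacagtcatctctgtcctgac
Reg3a: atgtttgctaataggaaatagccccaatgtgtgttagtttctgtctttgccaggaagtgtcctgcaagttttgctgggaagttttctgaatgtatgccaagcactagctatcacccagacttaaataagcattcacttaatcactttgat

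TATAAA began at position -29 in *Reg3b*, -27 in *Reg3g* and -30 in *Reg1*, counted back from -1 at the base before the start. It did not occur in the windows of 250 bases of *Reg3a* and *Reg4* on either strand. The window of *Reg3a* ends in cactttgat, letters that in *Reg3g* lie before its TATAAA. Any match farther along in *Reg3a* would thus fall outside the bases searched. TATAAA occurred on some strand in 12.4% of the 32851 RefSeq promoter windows. TTCNNNGAA, which reads alike on both strands, was found at -129 in *Reg3b* and in none of the other 4 genes. That motif was present in 7.02% of all windows. TGANTCA, the form that AP-1 binds, was found in *Reg1* alone of the 5 (at -117), against 6.75% of all windows. These matches describe letters only, and binding was not measured.

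Library totals ran from 11893817 to 26796461 counts in 11 of the 12 libraries and came to 110794420 in young AE library 3, the deepest. The 5 genes had between 270 and 109583 counts in a library, so counting error was small beside the spread between libraries. Levels are given as CPM, the counts per 1000000 counts of a library after scaling by TMM factors. Libraries are named by the number in their column name (1, 2 and 3 in young, 1, 3 and 5 in aged mice), and each number occurs in both cell types of an age. The sorts carried their markers: all 10 stem cell markers were called lower in AE at both ages, with *Lgr5* between 79.7 and 146 CPM in ISC and at most 4.72 CPM in AE, and all 12 enterocyte markers were called higher in AE. Young AE library 2 held the most stem cell marker RNA of the AE libraries, with a summed level of 644 CPM against 97.0 to 226 CPM in the other 5.

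All 5 Reg genes were more abundant in AE than in ISC on average, at both ages. Together they took 3495 to 5989 CPM in AE and 133 to 761 CPM in ISC. Per length of mRNA, young AE held 2250 ± 1560 CPM per kb of *Reg3b* (SD, n = 3), 1305 ± 976 of *Reg3g*, 1138 ± 271 of *Reg1*, 845 ± 202 of *Reg4* and 539 ± 296 of *Reg3a*. In aged AE the order of these levels per kb was *Reg3b* (1663 ± 986), *Reg4* (1099 ± 423), *Reg1* (676 ± 681), *Reg3g* (596 ± 249) and *Reg3a* (492 ± 183). In ISC the levels per kb lay between 39.7 for *Reg4* and 205 for *Reg3b* in the young group and between 31.1 for *Reg3a* and 117 for *Reg1* in the aged group. Neighbours in each of these orders overlapped between their libraries. Length was that of the longest coding transcript, and the annotated retained-intron form of *Reg3g* would bring its level per kb down to 58.9 (young) and 35.2 (aged) for ISC and to 476 (young) and 217 (aged) for AE, which would put it last of the 5 in both AE groups.

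**Figure D1:**
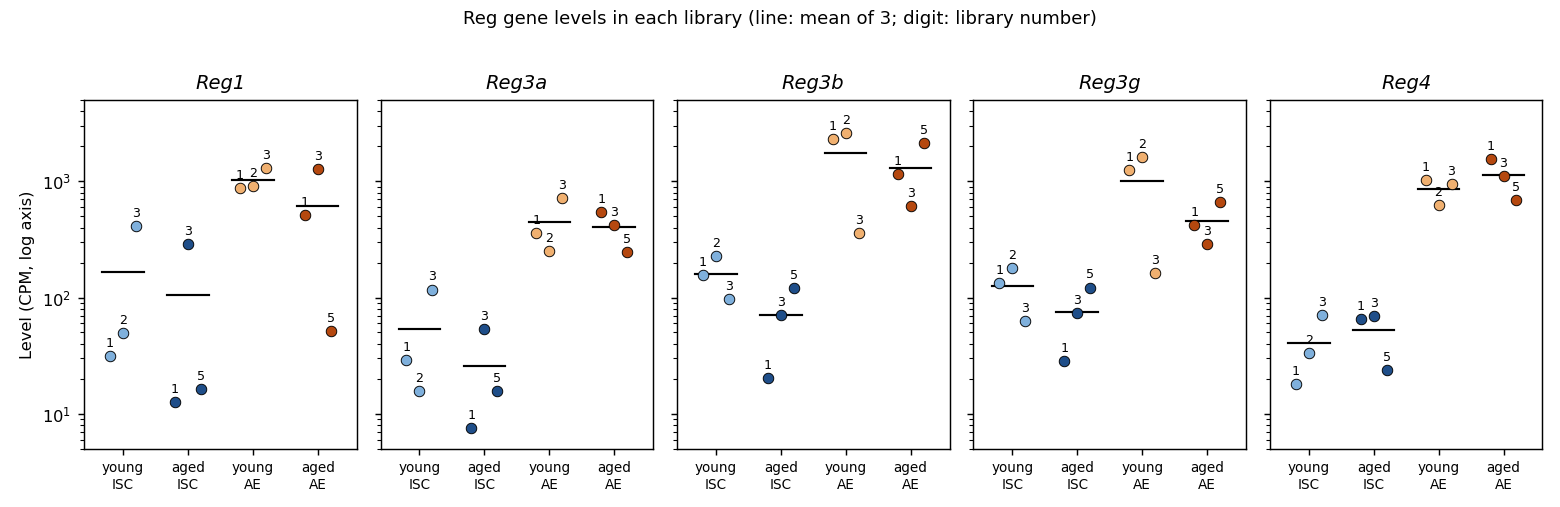
Levels of the 5 Reg genes in each of the 12 libraries, in CPM on a log axis, by group; digits give the library number and lines the mean of 3 libraries. *Reg4*, *Reg3b* and *Reg3a* separate ISC from AE completely, and aged AE library 5 holds only 51.6 CPM of *Reg1*, within the range of ISC.

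*Reg4* differed most between the cell types. It was at 17.97, 33.5 and 70.01 CPM in young ISC libraries 1, 2 and 3, and at 1016, 628 and 943 CPM in the young AE libraries of the same numbers. In aged mice it was at 64.7, 68.9 and 23.6 CPM in ISC libraries 1, 3 and 5 and at 1555, 1119 and 691 CPM in AE. The groups were far apart at both ages. AE exceeded ISC by 4.41 ± 0.53 (± SE) on the log2 scale in young mice (FDR = 5.17e-04, edgeR quasi-likelihood test, Benjamini-Hochberg) and by 4.35 ± 0.47 in aged mice (FDR = 3.88e-05).

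*Reg3b*, the most abundant member in AE, was at 157, 227 and 97.9 CPM in young ISC and at 2325, 2599 and 360 CPM in young AE. In aged mice it was at 20.2, 70.8 and 121 CPM in ISC and at 1152, 617 and 2139 CPM in AE. No ISC library reached an AE library, although young AE library 3 stood well below the others of its group. The excess of AE on the log2 scale was 3.45 ± 0.76 in young (edgeR FDR = 0.00801) and 4.12 ± 0.78 in aged mice (FDR = 0.00328).

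*Reg3g*, the close relative of *Reg3b* that acts on Gram-positive bacteria, was at 132, 178 and 63.3 CPM in young ISC and at 1251, 1606 and 162 CPM in young AE. Here the young groups overlapped, since young AE library 3 was below young ISC library 2. In aged mice it was at 28.2, 73.4 and 122 CPM in ISC and at 418, 291 and 669 CPM in AE, with no overlap. On the log2 scale AE was higher by 3.01 ± 0.86 in young (edgeR FDR = 0.0242) and by 2.55 ± 0.55 in aged mice (FDR = 0.00505). The call in young mice was lost without young ISC library 2 (FDR = 0.0514), young ISC library 3 (FDR = 0.0702) or young AE library 2 (FDR = 0.0923), and without a filter on low counts (FDR = 0.0507).

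*Reg3a*, another RegIII lectin, was at 29.2, 15.7 and 117 CPM in young ISC and at 362, 252 and 719 CPM in young AE. In aged mice it was at 7.58, 53.7 and 15.7 CPM in ISC and at 547, 423 and 247 CPM in AE. The highest ISC library was below the lowest AE library at both ages. The log2 values of this rise were 3.04 ± 0.84 in young (edgeR FDR = 0.0218) and 3.92 ± 0.85 in aged mice (FDR = 0.00961). Without young AE library 3 the call in young mice was lost (2.43, FDR = 0.0893), and without young ISC library 3 or aged ISC library 3 the values were 4.31 and 5.06.

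*Reg1* had the widest range of the 5 genes in every group but young AE, where its range was the narrowest. It was at 31.1, 49.7 and 413 CPM in young ISC and at 870, 905 and 1311 CPM in young AE, which did not overlap. In aged mice it was at 12.6, 287 and 16.3 CPM in ISC and at 511, 1271 and 51.6 CPM in AE, where library 5 fell below ISC library 3. Neither difference passed the threshold, with log2 values of 2.64 in young (95% interval 0.22 to 5.06, edgeR FDR = 0.0636) and 2.48 in aged mice (95% interval -2.23 to 7.19, FDR = 0.281). Comparing libraries of the same number, with the number as a block, the value in young mice was 3.59 ± 0.78 and passed (FDR = 0.0178), while that in aged mice was 2.89 and did not (FDR = 0.0672). Without young ISC library 3 the value in young mice was 4.67 (FDR = 1.46e-04), and with edgeR's own filter on low counts it was 2.67 (FDR = 0.0418).

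Thus 4 of the 5 genes were called higher in AE in each age group, and 5 of 5 in young mice with the block. Over all genes tested, 28.9% were called higher in AE in young and 30.6% in aged mice. All AE libraries were above all ISC libraries for 4 of the 5 genes in young mice, against 32.3% of all genes, and for 4 of the 5 in aged mice, against 33.4%. The median log2 fold change of the 5 genes was 3.04 in young and 3.92 in aged mice, beside 0.15 and -0.13 over all genes. In such bulk samples, more cells that express a gene and more RNA of it per cell cannot be told apart.

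**Figure D2:**
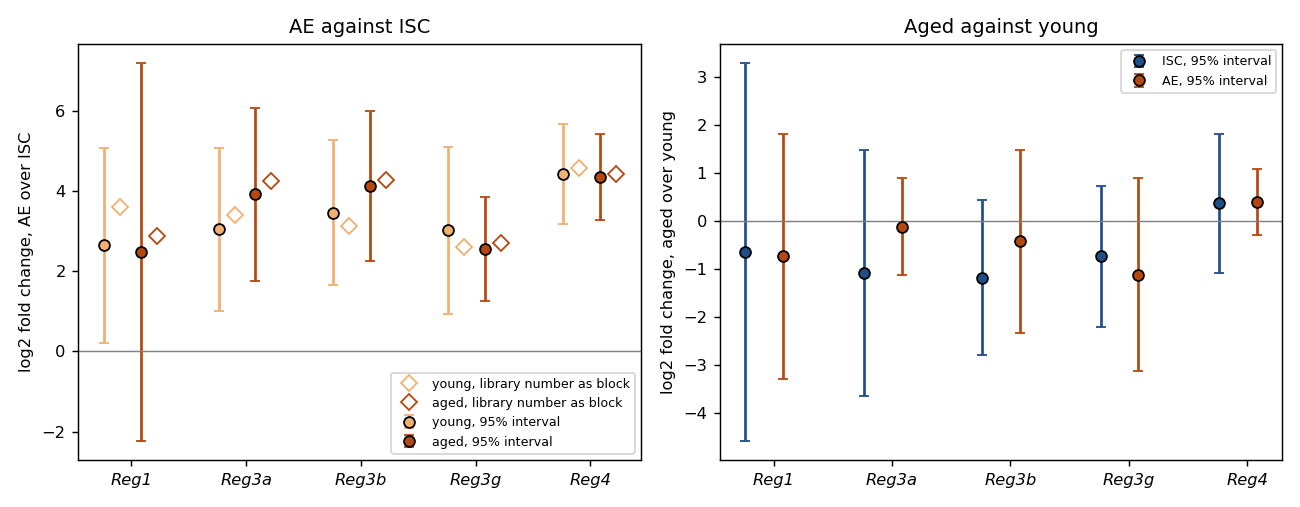
Log2 fold changes of the 5 Reg genes, of AE over ISC at each age (left) and of aged over young in each cell type (right), with 95% intervals from edgeR; open diamonds give the fit with the library number as a block. On the left, intervals of all but *Reg1* in aged mice lie above 0, and on the right all intervals cross 0.

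The remaining members of the cluster were barely expressed. *Reg3d* was at 0 to 0.56 CPM in ISC (at most 10 counts in a library) and at 0.65 to 3.62 CPM in AE, and was called higher in AE, by 2.83 ± 0.86 log2 units in young (edgeR FDR = 0.0216) and 3.11 ± 0.72 in aged mice (FDR = 0.00306). In young mice this call was lost without young ISC library 1 (FDR = 0.0708), young ISC library 2 (FDR = 0.0761) or young AE library 3 (1.54, FDR = 0.153). *Reg2* had 6 counts in young AE library 3 and 0 in the other 11 libraries, where 3 counts would stand for 0.0842 to 0.327 CPM. These limits cover counting error only.

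With age, no Reg gene passed the threshold in either cell type. In edgeR's test 0 of the 5 were called in ISC and 0 in AE, as were 0% of all 15552 genes tested in ISC and 0% of all 16265 in AE. At an unadjusted P under 0.05 edgeR gave 784 genes in ISC and 779 in AE, none of them among the 5. DESeq2 called 58 and 18 genes at an FDR of 0.05, none of them a Reg gene, and gave no adjusted P for *Reg1* in ISC. The young and aged libraries of each of the 5 genes overlapped in both cell types. Among all genes, all aged libraries were below the young ones for 4.44% in ISC and 6.94% in AE, and above them for 4.42% and 4.01%.

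In ISC, means of 4 of the 5 genes were lower in aged mice. Young ISC held 161 ± 64.6 CPM of *Reg3b* and aged ISC 70.7 ± 50.4 CPM (SD, n = 3 each), a log2 fold change of -1.18 with a 95% interval of -2.80 to 0.45. The log2 fold changes were -1.08 for *Reg3a* (-3.65 to 1.49), -0.73 for *Reg3g* (-2.20 to 0.73), -0.64 for *Reg1* (-4.58 to 3.30) and 0.38 for *Reg4* (-1.07 to 1.82). The median over the 5 was -0.73, beside 0.01 over all genes. The sign of *Reg1* and *Reg3a* rested on young ISC library 3, without which their values were 1.39 and 0.19. Enterocyte RNA moved with these values: 11 of the 12 enterocyte markers were also lower on average in aged ISC, with a median log2 fold change of -0.90 and none called. T cell and intraepithelial lymphocyte markers also moved: aged ISC had less of 9 of the 10 tested (median log2 fold change -2.79, none called), and their summed level was 23.1 to 54.4 CPM in young and 11.1 to 21.1 CPM in aged ISC. The part of either in the lower Reg means was not tested.

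In AE, young libraries held 1006 ± 753 CPM of *Reg3g* and aged ones 459 ± 192 CPM, a log2 fold change of -1.11 with a 95% interval of -3.13 to 0.90. *Reg1* gave -0.73 (-3.28 to 1.83), *Reg3b* -0.42 (-2.32 to 1.49), *Reg3a* -0.12 (-1.13 to 0.90) and *Reg4* 0.40 (-0.29 to 1.10). The value of *Reg3a* turned to 0.43 without young AE library 3 and to 0.15 without aged AE library 5. The intervals of *Reg1* and *Reg3b* reached past a 2-fold change in both directions. The age effect did not differ detectably between AE and ISC for any of the 5, with differences from -0.39 for *Reg3g* to 0.95 for *Reg3a* on the log2 scale and 0 of 5 called, against 0.00575% (1 of 17377) of all genes.

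The libraries of a group did differ from each other, and the 5 genes fell into sets in how they did so. Each library was expressed as its log2 CPM minus the mean of its group. Over the 12 libraries, *Reg3b* and *Reg3g* deviated together with a Pearson r of 0.977, and with 0.977 within ISC and 0.980 within AE. The rank correlation was 0.965, and r was 0.958 without the 2 libraries farthest from the median of *Reg3b*. *Reg1* and *Reg3a* formed the other close pair, with an r of 0.814 (0.917 in ISC and 0.593 in AE). *Reg4* deviated with both, with an r of 0.677 with *Reg1* (0.694 in ISC and 0.664 in AE) and 0.539 with *Reg3a* (0.476 in ISC and 0.793 in AE), the latter 0.189 without the 2 libraries farthest from the median. Among 10559 genes with a mean of at least 5 CPM, 20.7% had an r over 0.5 with *Reg4* and 17.2% with *Reg1*. For *Reg3a* that share was 13.6%, for *Reg3g* 13% and for *Reg3b* 10.9%. Values such as those of *Reg4* were thus not particular to the Reg genes. Between the sets every r was negative in AE, from -0.869 for *Reg3a* with *Reg3g* to -0.407 for *Reg4* with *Reg3g*. For *Reg3a* against *Reg3b* it was -0.859 in AE but 0.06 in ISC. In ISC, the r of *Reg1* and *Reg3a* with *Reg3b* and *Reg3g* lay between -0.168 and 0.06. *Reg4* there gave -0.605 with *Reg3b* and -0.711 with *Reg3g*. These values describe 12 libraries that share numbers between ISC and AE and a single scaling, and no P is given for them.

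**Figure D3:**
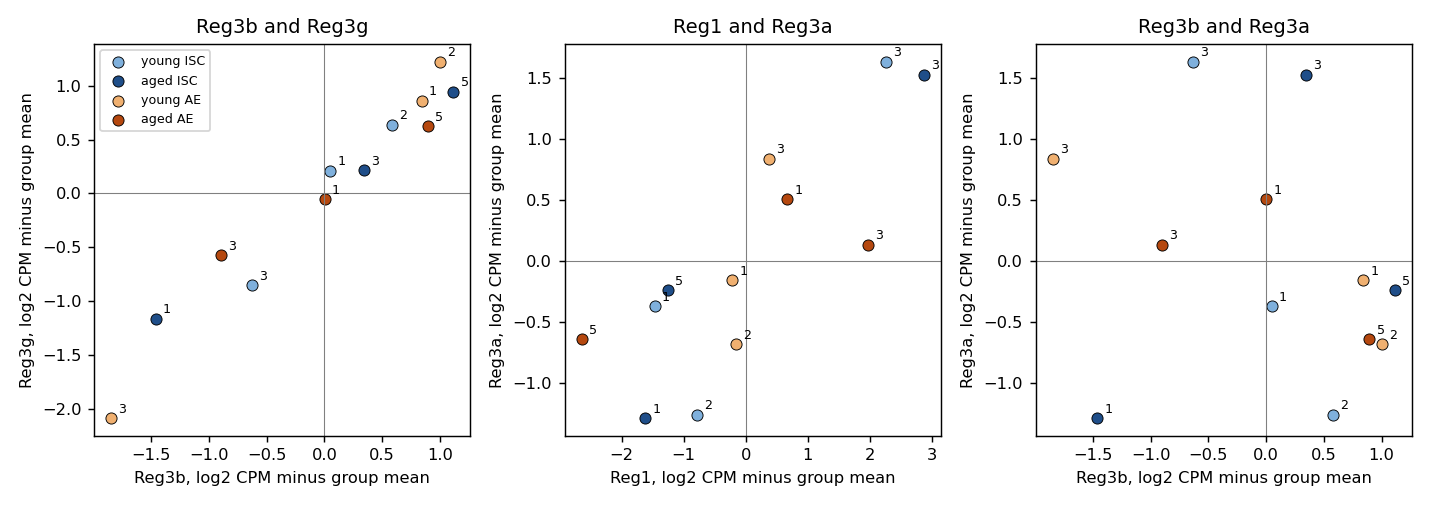
Deviations of 3 pairs of Reg genes from their group means, in log2 CPM, with 1 point a library, coloured by group and marked with the library number. *Reg3g* follows *Reg3b* along the diagonal (r = 0.977), *Reg3a* follows *Reg1* more loosely (r = 0.814), and *Reg3a* falls as *Reg3b* rises in AE (r = -0.859).

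Young library 3 shows the contrast. In AE it had the most *Reg1* and *Reg3a* of the young libraries and by far the least *Reg3b* and *Reg3g*, with deviations of -1.85 and -2.09 on the log2 scale. In ISC the library of the same number again had the most *Reg1* and *Reg3a* (deviations of 2.26 and 1.63) and the least *Reg3b* and *Reg3g* (-0.63 and -0.85). In aged mice, library 3 had the most *Reg1* in both cell types and library 5 the most *Reg3b* and *Reg3g*. As a result, the ratio of *Reg1* to *Reg3b* CPM ran from 0.0241 in aged AE library 5 to 4.22 in young ISC library 3. More generally, ISC and AE libraries of the same number deviated together over all genes, where r lay between 0.222 and 0.485 for all 6 such pairs and between -0.471 and 0.2 for 12 pairs whose numbers differ. What a number stands for is not stated in the labels.

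Despite their tight link, *Reg3b* and *Reg3g* did not keep a fixed ratio. *Reg3b* CPM was 0.717 to 1.55 times *Reg3g* CPM in the 6 ISC libraries and 1.62 to 3.20 times in the 6 AE libraries, without overlap. Without overlap, the ratio in AE was necessarily above that in ISC of the same number in each of the 6 pairs. This ratio was singled out after its values were seen, and no test is given. No stretch of 50 bases in a transcript of any of the 5 genes occurs in another Reg gene, so reads of that length could be assigned to each. Of the 876 such stretches of *Reg1*, 32 also occur in genes outside the family.

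Among 10559 genes with a mean of at least 5 CPM, those with deviations most like *Reg3b* were *Reg3g*, *Inpp5a* (r = 0.967), an inositol phosphatase, and *Pard3b* (0.927). For *Reg3g* they were *Reg3b*, *Inpp5a* (0.969) and *Hs3st1* (0.932), a heparan sulfate sulfotransferase. *Reg3a* went with *Slc28a1* (0.992), a nucleoside transporter, *Eci3* (0.985) and *Dhrs11* (0.975). *Reg1* went with *Otop3* (0.961), *Papss2* (0.953), which makes the sulfate donor PAPS, and *Mdh2* (0.943), the mitochondrial malate dehydrogenase. For *Reg4* they were *Smdt1* (0.96), *Cutal* (0.955) and *Txndc12* (0.946).

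Some genes known to be induced along with *Reg3* by microbes or IL-22 deviated with *Reg3b*. Of 12 such genes 6 reached the mean of 5 CPM, and 3 of these had an r over 0.5 with *Reg3b*, against 10.9% of all genes. They were *Duoxa2* (r = 0.896), *Nos2* (0.812) and *Duox2* (0.780), which encode the maturation factor of the epithelial NADPH oxidase DUOX2, the inducible nitric oxide synthase and DUOX2 itself. *Duoxa2* was at 14.1, 14.0 and 1.81 CPM in young AE libraries 1, 2 and 3, and at 2.28, 2.51 and 10.5 CPM in aged AE libraries 1, 3 and 5. In ISC it was at 3.50, 3.29 and 1.74 CPM in young and at 2.02, 2.54 and 6.44 CPM in aged mice. Young library 3 was thus low and aged library 5 high in both cell types, as for *Reg3b*. *Nos2* was likewise lowest in the young libraries numbered 3, where ISC had 2.19 CPM of it and AE had 6.48 CPM. In aged AE it was at 51.5, 20.3 and 32.3 CPM in libraries 1, 3 and 5, so library 5 was not the highest there, unlike for *Reg3b* and *Duoxa2*. The other 3 genes were *Fut2* (0.0289), *Pigr* (0.208) and *Ifrd1* (0.205), and the median r of the 6 was 0.494 with *Reg3b* and -0.341 with *Reg3a*.

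Enterocyte genes went instead with *Reg1* and *Reg3a*. Of the 12 enterocyte markers, 10 had an r over 0.5 with *Reg3a* and 10 with *Reg1*, against 13.6% and 17.2% of all genes, and 2 had one with *Reg3b*. Trehalase (*Treh*) gave 0.961, intestinal alkaline phosphatase (*Alpi*) 0.899 and the fatty acid binding protein *Fabp2* 0.899 with *Reg3a*. *Fabp1*, the fatty acid binding protein of the proximal small intestine, gave 0.881 with *Reg3a*, 0.872 with *Reg1* and -0.471 with *Reg3b*. It was at 141, 160 and 1507 CPM in young ISC and at 2757, 3047 and 9211 CPM in young AE, highest in library 3 of both. In aged mice it was at 122, 741 and 70.4 CPM in ISC and at 5050, 7207 and 2720 CPM in AE, lowest in library 5 of both. *Fabp6*, the ileal bile acid binding protein, gave 0.783 with *Reg3b* and was at 280, 286 and 45.5 CPM in young AE, but at 508, 524 and 506 CPM in aged AE, where *Reg3b* varied. It is no stand-in for its list: of the 7 distal markers measured, 4 had an r over 0.5 with *Reg3a* (median 0.792) and 2 with *Reg3b* (median 0.312). Which stretch of intestine each library held is not given in the labels, and its part in these patterns was not tested.

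**Figure D4:**
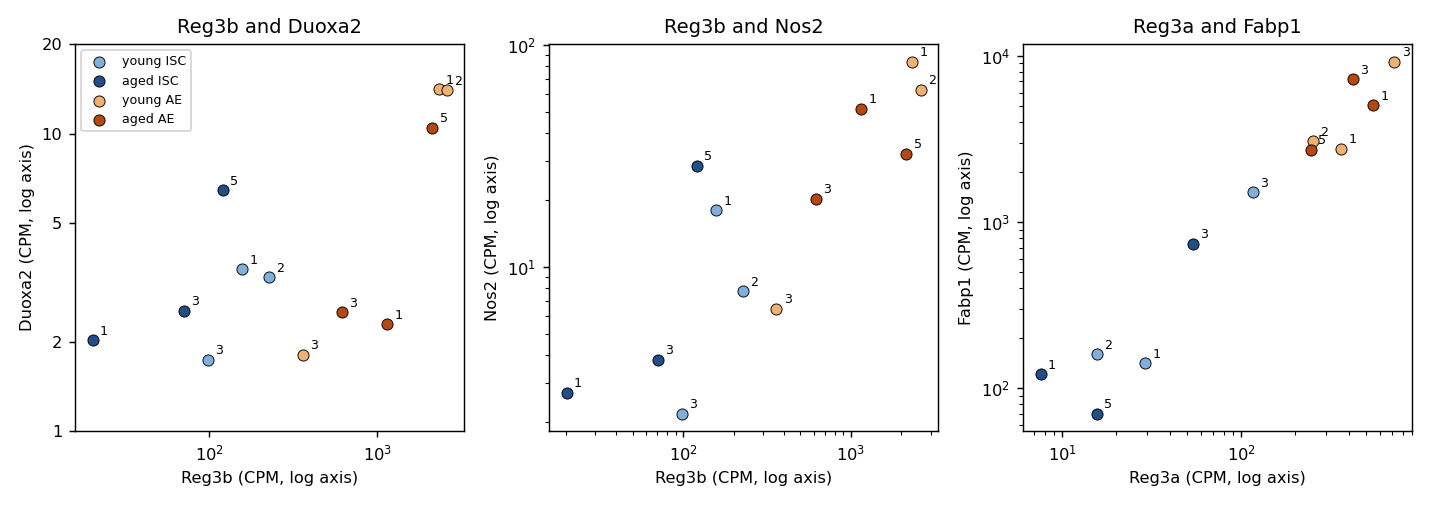
Levels of *Duoxa2* and *Nos2* against *Reg3b* and of *Fabp1* against *Reg3a*, in CPM on log axes, with 1 point a library, coloured by group and marked with the library number. Young AE library 3 is low for *Reg3b*, *Duoxa2* (1.81 CPM) and *Nos2* (6.48 CPM) and highest for *Reg3a* and *Fabp1* (9211 CPM).

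*Reg4* deviated with enteroendocrine markers. Of 14 such markers 8 had an r over 0.5 with it (median 0.572), against 20.7% of all genes, led by *Tph1* (0.884), the enzyme of serotonin synthesis, and the granin genes *Chga* (0.823) and *Chgb* (0.815). Of the 11 goblet cell markers 3 had such an r, with 0.762 for *Tff3*. For Paneth cell markers the count with *Reg4* was 0 of 9, as it was with *Reg1* and *Reg3a*. With *Reg3g* it was 4 of 9 (median 0.382), against 13% of all genes. With *Reg3b* it was 2 of 9 (median 0.268), against 10.9%. Enteroendocrine RNA itself was higher in AE. There 12 of the 14 markers were called higher in young and 11 in aged mice, against 28.9% and 30.6% of all genes. Called lower were 1 in young and 2 in aged mice.

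The receptor side of the pathway was also higher in AE, while RNA of the upstream cytokine was not seen in these sorted cells. *Il22* had no counts in any of the 12 libraries. AE were sorted without CD45 and ISC as GFP-high cells, so other cells of the tissue were selected against. These counts therefore do not show whether *Il22* was expressed elsewhere in the tissue. The IL-22 receptor and STAT3 list also held *Il6ra*, *Il17ra*, *Il18* and *Myd88*. Of its genes, 9 of 12 tested in young and 9 of 11 in aged mice were called higher in AE, and 0 lower. Over all genes, 28.9% in young and 30.6% in aged mice were called higher, and 26.7% and 34.2% lower. The median log2 fold change of the list was 1.99 in young and 1.57 in aged mice. *Il22ra1*, the specific receptor chain, was at 8.12 to 12.3 CPM in young ISC and 61.1 to 86.5 CPM in young AE, which made 2.70 ± 0.23 log2 units in young (edgeR FDR = 1.04e-04) and 2.92 ± 0.41 in aged mice (FDR = 2.88e-04). *Il10rb*, the shared chain, rose by 1.85 and 2.11 and the kinase gene *Jak1* by 0.57 and 0.64. *Jak1* in young mice fell short without young ISC library 2 (FDR = 0.0507), young AE library 2 (FDR = 0.0623) or young AE library 3 (FDR = 0.0908). In young mice the largest rise among genes called was that of *Il18* (2.83, edgeR FDR = 0.00181), which was also listed as a villus base enterocyte marker. In aged mice it was that of *Socs3*, the feedback inhibitor that STAT3 induces (3.49, edgeR FDR = 8.77e-07).

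By age, 0 genes of that list were called in ISC or AE. *Socs3* came nearest and is named for its values: it was at 49.4, 44.8 and 50.2 CPM in young AE and at 144, 136 and 105 CPM in aged AE, without overlap. Aged AE exceeded young AE by 1.43 ± 0.16 on the log2 scale (edgeR FDR = 0.102), and DESeq2 called it (1.44, FDR = 3.42e-10). *Reg3b* and *Reg3g* had values of -0.42 and -1.11 in the same comparison, as given above, and over the 12 deviations from group means *Socs3* gave an r of -0.672 with *Reg3b*. Of the 10 genes of that list with a mean of at least 5 CPM, 0 had an r over 0.5 with *Reg3b*, against 10.9% of all genes. Their r with *Reg3b* ran from -0.921 for *Myd88* to 0.144 for *Il6st* (median -0.163). With *Reg3g* the count was likewise 0 of 10 (median -0.211), against 13% of all genes.

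Of the genes induced with *Reg3*, 2 of 9 tested in young and 2 of 7 in aged mice were called higher in AE and 0 lower, with medians of 1.22 and 0.57, shares near the 28.9% and 30.6% of all genes called higher. *Lcn2*, an iron-binding antimicrobial lipocalin, was called lower in young mice with upper-quartile scaling, in the fit on all 12 libraries and without young ISC library 3 or young AE library 2. By age, 0 of 8 were called in ISC and 0 of 7 in AE. The genes called higher in AE over ISC were the same at both ages. *Fut2*, a fucosyltransferase of the epithelial surface, rose by 1.51 log2 units in young (edgeR FDR = 0.0253) and 1.36 in aged mice (FDR = 0.00769). *Ifrd1* rose by 1.22 (FDR = 0.00428) and 1.67 (FDR = 0.00968). *Ifrd1* in aged mice fell short without aged ISC library 5 (FDR = 0.0729). The call of *Fut2* in young mice was lost with the block (FDR = 0.0594) and without young ISC library 1 (FDR = 0.0916), young ISC library 2 (FDR = 0.0751) or young AE library 1 (FDR = 0.0819), and the count in young mice was 5 with the block, 5 with DESeq2, 4 in a fit on all 12 libraries and from 1 to 5 when single libraries were left out (1 without young ISC library 1, young ISC library 2 or young AE library 1, and 5 without young AE library 3). The acute-phase gene *Saa1* reached at most 1.31 CPM in a library and *Lcn2* at most 0.40 CPM, and *Saa2*, *S100a8* and *S100a9* had no counts. *Duox2* lay between 8.48 and 85.2 CPM in ISC and between 15.4 and 75.7 CPM in AE, a log2 fold change of -0.04 in aged mice whose sign changed with the scaling.

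Other antimicrobial genes divided by cell type. Of 16 tested in young and 15 in aged mice, 5 were called higher in AE at each age, near the 28.9% and 30.6% of all genes. Lower in AE were 9 in young and 10 in aged mice, beside 26.7% and 34.2% of all genes. The count called higher was 3 in young mice with DESeq2 and without young ISC library 2 or 3, and 3 in aged mice without aged AE library 1. Those lower in AE were mainly products of Paneth cells, which sit in the crypt. *Lyz1*, the Paneth cell lysozyme, was at 207 to 793 CPM in young ISC and 14.6 to 76.4 CPM in young AE, a log2 fold change of -3.62 (edgeR FDR = 0.0114), and in aged mice it was -3.97 (FDR = 3.29e-04). *Ang4*, an antimicrobial ribonuclease, fell by 3.42 and 4.47 on the log2 scale, and *Itln1*, the lectin intelectin, fell by 2.49 and 2.82. The defensin genes *Defa22* in young and *Defa26* in aged mice fell most: *Defa22* was at 5.56 to 32.8 CPM in young ISC and at most 0.496 CPM in young AE, and *Defa26* at 2.83 to 4.49 CPM in aged ISC and at most 0.0896 CPM in aged AE. Without young AE library 3 the call of *Lyz1* in young mice was lost (FDR = 0.0576). Those higher in AE were *Zg16*, a goblet cell lectin, *Lypd8* and 3 *Sprr2a* genes. *Sprr2a2*, with the largest rise, was at most 0.112 CPM in ISC, at 2.23 to 58.8 CPM in young AE and at 4.58 to 34.9 CPM in aged AE. It shares much of its sequence with other *Sprr2a* genes, and its call was lost without young ISC library 3 (FDR = 0.0845) or aged AE library 1 (FDR = 0.0665) and, in aged mice, without a filter on low counts (FDR = 0.0569). By age, edgeR called 0 of 14 genes of this list in ISC and 0 of 15 in AE, while DESeq2 called *Zg16* lower in aged ISC (-1.28, FDR = 0.00793) and *Sprr2a1* higher in aged AE (3.51, FDR = 0.0082).

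Markers of other cells moved with the low Reg levels in ISC to different degrees. As a percentage of the AE library of the same number, summed enterocyte marker CPM in ISC was 6.74, 5.46 and 11.4 in young libraries 1, 2 and 3 and 2.29, 5.76 and 3.77 in aged libraries 1, 3 and 5. *Reg3a* in ISC was at 8.07, 6.25 and 16.3% of its AE level in young and 1.38, 12.7 and 6.37% in aged mice, highest in library 3 at both ages and lowest in aged library 1, as for the enterocyte markers. *Reg3g* in ISC was at 10.6, 11.1 and 39.1% in young and 6.74, 25.2 and 18.2% in aged mice, above the enterocyte percentage in all 6 pairs. That did not hold for *Reg3b*, at 6.75, 8.73 and 27.2% in young and 1.75, 11.5 and 5.66% in aged mice. It was level with the enterocyte markers in young library 1 and below them in aged library 1. *Reg1* reached 31.5, 22.6 and 31.6% in young library 3 and aged libraries 3 and 5, and was at 2.46 to 5.49% in the other 3. *Reg4* was at 1.77 to 7.42%, beside 1.93 to 17.9% for enteroendocrine and 4.08 to 7.32% for goblet cell markers. The part of enterocytes or their RNA among the sorted ISC in these levels was not tested.

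**Figure D5:**
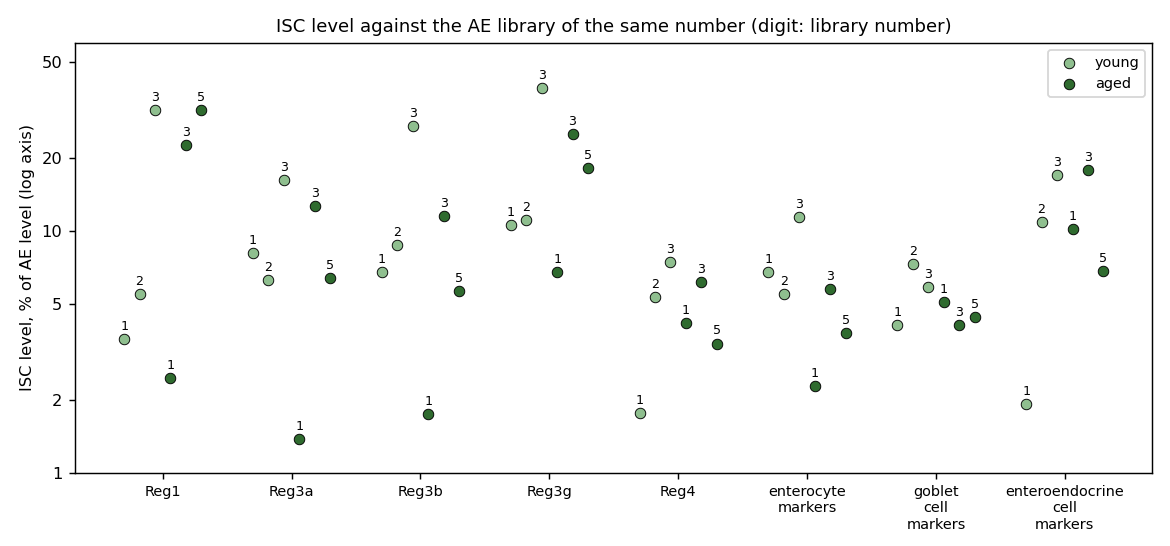
Level in each ISC library as a percentage of the AE library of the same number, on a log axis, for the 5 Reg genes and the summed CPM of 3 marker lists; light points are young, dark points aged, and digits give the library number. *Reg3g* lies between 6.74 and 39.1% and the enterocyte markers between 2.29 and 11.4%.

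Paneth cell markers, by contrast, were more abundant in ISC (summed 601 to 1776 CPM) than in AE (56.9 to 242 CPM). Pancreatic tissue, another known source of Reg RNA, was hardly represented. Of 12 exocrine pancreas markers, 10 or 11 had 3 counts or fewer in every library but the deepest, *Ptf1a* had none, and *Clps* alone was above 1 CPM, at 5.95 to 15.3 CPM in ISC and 9.82 to 51.5 CPM in AE. T cell and intraepithelial lymphocyte markers summed to 90.4 to 150 CPM in AE and 11.1 to 54.4 CPM in ISC.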

How the data were processed

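Trimming with Trim Galore 0.4.4 and mapping to GRCm38 with HISAT2 2.1.0 are named in the submitters' processing notes. The authors counted reads with a single mapping position in SeqMonk, over transcripts merged to their exons, and deposited raw counts, with no normalization. A further deposited table, with fold changes and FDR values of the authors' own comparisons, was not used. In 8 of 12 sample titles the code at the start names another group than the other words do, so columns were grouped by their own names alone. The ages come from the study's methods, which list the ages of 3 animals in each cohort. The labels do not tie a library to an animal, so P-values are read as measuring the spread between these libraries.

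Every comparison kept the genes whose counts summed to 10 or more, scaled them with TMM factors and fitted them in edgeR 4.0.16 (robust quasi-likelihood test, Benjamini-Hochberg FDR threshold of 0.05) in R 4.3.3, a step tested on simulated data. Exact permutation of 3 against 3 libraries could not reach P = 0.05, so none was run. No libraries of a group were copies of each other: the chi-square of their counts was 31.2 to 258 times its degrees of freedom. Library numbers were taken to pair ISC with AE libraries in the block. The r of deviations was 0.222 to 0.485 in the 6 same-numbered pairs and -0.471 to 0.2 in 12 others. The highest of the latter was thus close to the lowest of the former. Blocked values are given where they change a call. Alternatives were DESeq2 1.42.0, RLE or upper-quartile factors, no filter and filterByExpr, one fit over all 12 libraries, the block, thinning of the deepest library and leaving out each library. The merged exon length was added after seeing the data. Members and lists were chosen with earlier results of these data known. Named were the 5 genes, *Reg2*, *Reg3d*, the first 3 tested genes of a list, its called genes with the largest rise and fall, and the 3 genes most like each member; further names, such as *Duoxa2*, *Nos2*, *Treh*, *Fabp1*, *Tph1* and *Socs3* by age, were chosen after their values were seen. Muc2, Pla2g2a, Igha and the Paneth cell marker Gm15284 had no unique row and were not used.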

Additional observations from a re-analysis of the deposited data

How the results depend on the processing

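Each of the 4 Reg genes called in aged mice was called in AE over ISC under each alternative run there, and *Reg3b* and *Reg4* were in young mice too; the Reg calls that changed are given with the results above. The number of genes called by age in ISC was 58 with DESeq2, 1 with no filter and 3 in the fit on all 12 libraries, against 0, and 0 to 1 when libraries were left out. In AE it was 18 with DESeq2, 2 in the fit on all libraries and 1 with the deepest library thinned, against 0, and 0 to 1 when libraries were left out. For the difference of age effects it was 43 with DESeq2 and 19 with the replicate block, against 1, and 0 to 3 when libraries were left out. No Reg gene was among them. The block changed no call of a Reg gene other than that of *Reg1* in young mice. The aged fold change of *Duox2* was 0.0668 with DESeq2, 0.0627 with RLE scaling, 0.0391 on all libraries, 0.24 with the block and -1.02 to 1.53 when libraries were left out. For the difference of age effects, *Reg4* gave -0.0073 with upper-quartile scaling and -0.0752 with the block, and *Reg3g* 0.15 with the block. When libraries were left out, that difference ran from -2.13 to 2.76 for *Reg1*, -0.32 to 2.09 for *Reg3a*, -0.93 to 0.17 for *Reg3g*, -0.65 to 0.36 for *Reg4* and -0.65 to 1.55 for *Reg3d*. The age effect ran from -3.51 to 1.39 for *Reg1*, -2.22 to 0.19 for *Reg3a* and -1.69 to 0.20 for *Reg3d* in ISC, and from -0.39 to 0.43 for *Reg3a* and -0.84 to 0.87 for *Reg3d* in AE. The cause of these shifts was not tested, other than that fewer libraries enter a fit. Upper-quartile scaling moved the median fold change of AE over ISC over all genes by -0.12 in young mice, far less than the Reg values. With 3 libraries a group, the age effects of these 5 variable genes are bounded only as widely as their intervals.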
